A study of Mus musculus with 10 samples.

Results

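The LIM-only genes *Lmo1*, *Lmo2*, *Lmo3* and *Lmo4* and the genes for their binding partners, *Ldb1* and *Ldb2*, were examined in the cortical hem (CH) of wild-type (WT) and *Lmx1a-/-* mouse embryos at embryonic day 13.5 (e13.5). These 6 genes were taken by symbol from the 52227 genes of the count table, and *Lmo2* was chosen by its normalized counts, which differed between the genotypes in these same libraries. Its difference is therefore given as a description, without a test. Each of the 6 genes had at least 23 counts in each of the 10 libraries, so all 6 passed the filter on low counts (10 counts or more in 3 libraries or more) and were among the 21664 genes tested. A false discovery rate (FDR) under 0.1 over all 21664 genes was the threshold, and FDR values are those of edgeR's quasi-likelihood test with Benjamini-Hochberg adjustment unless DESeq2 is named.

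LIM domains are zinc-binding folds that bind other proteins. An LMO protein consists of little more than a pair of LIM domains and has no DNA-binding domain of its own. LDB proteins dimerize and bind LIM domains through a short interaction region, so that they join LMO proteins, LIM homeodomain transcription factors such as Lmx1a, and other DNA-binding proteins into larger complexes. LMO proteins and LIM homeodomain factors compete for LDB, and Lmo2 is best known from blood and endothelial development, where it bridges Ldb1 to Tal1, E proteins and Gata factors. The CH lies at the medial edge of the cortical neuroepithelium, secretes Wnt and Bmp ligands and produces Cajal-Retzius cells, and *Lmo2* is in use as a CH marker.

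RNA was measured in laser-captured CH from 5 WT embryos and from 5 *Lmx1a-/-* embryos, which are homozygous for *drJ*, and each library pooled the sections of 1 embryo. Animals of both genotypes were on a mixed C57Bl6, FVB and CD1 background, and no agent was given. The *drJ* allele is present in the whole embryo and carries a point mutation that leaves an inactive protein, which antibodies still detect, and staining of alternate sections for Lmx1a set the boundaries of the captured area in both genotypes. In bulk tissue of this kind, fewer cells of a type and less RNA per cell cannot be told apart. The libraries held 19145952 to 36462780 counts, and all 14 listed CH markers were among the tested genes. *Xist*, transcribed from the inactive X chromosome, stood at 4400 to 5170 TMM-normalized CPM (counts relative to the scaled library total) in WT embryos 2 to 5. It stood at 1.01 CPM in WT embryo 1 and at 0.163 to 1.15 CPM in the 5 *Lmx1a-/-* embryos, and the sum of 4 Y-linked genes was 341 CPM in WT embryo 1, 384 to 451 CPM in the mutants and at most 0.0588 CPM in the other WT embryos. Genotype and sex-linked transcripts therefore moved together in all WT embryos but embryo 1. *Lmx1a* itself, whose transcript remains in the mutant and does not check the labels, rose from 71.2 ± 18.2 to 114 ± 21 CPM (SD, n = 5), a log2 fold change of 0.68 (SE 0.17, edgeR FDR = 0.0658).

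Coding sequences show how alike the coding parts of the members' transcripts are. From the alignment of each family the stretch of 60 bases with the most bases shared by all its genes was taken. A pair of genes can share a longer run elsewhere. In the lines that follow, 5′ to 3′ on the coding strand, capitals mark the 36 bases that all 4 LMO genes share.
Lmo1: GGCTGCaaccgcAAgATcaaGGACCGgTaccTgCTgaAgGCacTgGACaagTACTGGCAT
Lmo2: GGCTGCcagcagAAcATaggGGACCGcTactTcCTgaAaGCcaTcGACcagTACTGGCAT
Lmo3: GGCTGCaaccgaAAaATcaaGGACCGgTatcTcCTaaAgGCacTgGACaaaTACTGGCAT
Lmo4: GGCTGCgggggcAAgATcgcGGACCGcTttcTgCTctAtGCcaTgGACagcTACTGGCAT
These stretches come from the GENCODE M21 annotation of GRCm38. They lie at chr7:109143560-109143619 in exon 2 of *Lmo1* (minus strand), chr2:103976057-103976116 in exon 3 of *Lmo2* (plus strand), chr6:138416519-138416578 in exon 3 of *Lmo3* (minus strand) and chr3:144201917-144201976 in exon 2 of *Lmo4* (minus strand). Exons are numbered within the transcript used for each gene.

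The same was done for the LDB pair, with capitals for the 53 of 60 bases in common.
Ldb1: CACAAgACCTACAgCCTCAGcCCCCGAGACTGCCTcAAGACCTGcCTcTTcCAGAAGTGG
Ldb2: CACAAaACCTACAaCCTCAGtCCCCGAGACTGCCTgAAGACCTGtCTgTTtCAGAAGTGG
They lie at chr19:46034411-46034470 in exon 9 of *Ldb1* and at chr5:44480248-44480307 in exon 6 of *Ldb2*, both on the minus strand. Over whole coding sequences, *Lmo2* was identical to *Lmo1* at 61.2% of aligned bases, to *Lmo3* at 59.6% and to *Lmo4* at 54.1%. *Lmo1* and *Lmo3* were the closest LMO pair, at 79.1%, and *Ldb1* and *Ldb2* were identical at 72.6%. No run of identical bases was longer than 20 between LMO genes or than 23 between the LDB genes. *Lmo2* shared at most 16 bases in a row with another LMO gene.

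*Lmo2* (ENSMUSG00000032698, chr2:103957986-103981878, plus strand) stood at 174, 144, 94.8, 98.3 and 181 CPM in WT embryos 1 to 5. In *Lmx1a-/-* embryos 1 to 5 it stood at 25.3, 28.4, 19.5, 27.7 and 32.8 CPM. Every WT value was above every mutant value, and the lowest WT embryo was well clear of the highest mutant. The means were 138 ± 40.5 and 26.7 ± 4.86 CPM (SD, n = 5), a ratio of WT to mutant of 5.17 and a log2 fold change of -2.37 (SE 0.20). The counts behind these values ran from 522 to 4888 per library. WT embryo 1, the WT embryo with Y-linked transcripts and without *Xist*, had the second highest *Lmo2* level of the 10 embryos. Set against the 5 mutants alone, this embryo gave a log2 fold change of -2.71 (SE 0.19), with its spread assumed to be that of the mutants.

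**Figure D1:**
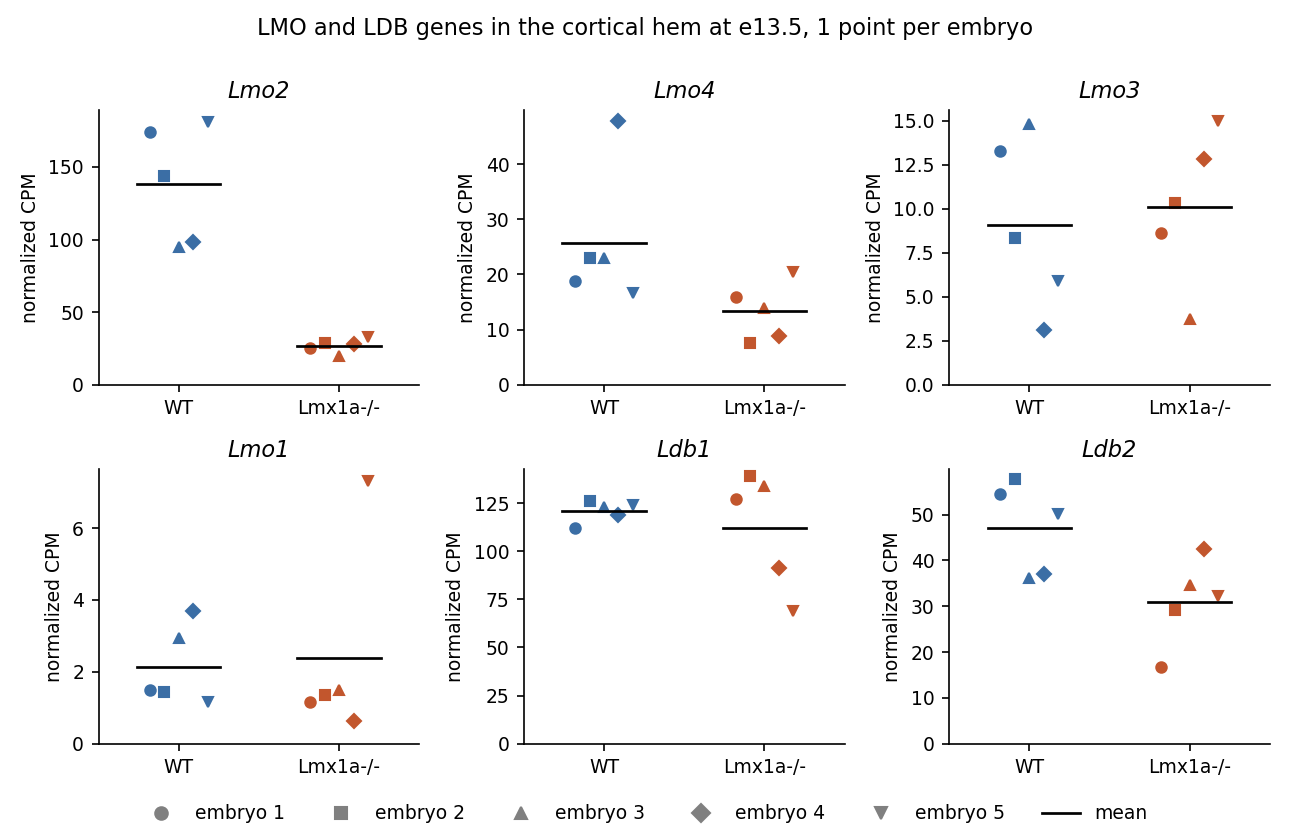
Normalized CPM (y axis, from 0, a scale of its own in each panel) of the 4 LMO and the 2 LDB genes in each WT and *Lmx1a-/-* embryo (x axis), with 1 marker shape per embryo number and a black line at the mean of 5 embryos. *Lmo2* is the panel without overlap, at 94.8 to 181 CPM in WT and 19.5 to 32.8 CPM in *Lmx1a-/-* embryos.

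Among the other LIM-only genes, *Lmo4*, which is broadly expressed in the developing cortex, was the next most abundant per exon length. It stood at 18.8, 22.9, 22.9, 47.8 and 16.6 CPM in WT embryos and at 15.9, 7.61, 13.9, 8.83 and 20.5 CPM in mutants. WT embryo 4 was far above the rest, mutant embryo 5 was above 2 WT embryos, and the groups overlapped. The log2 fold change was -0.95 (SE 0.31, 95% interval -1.62 to -0.27), and it did not pass the threshold in the edgeR quasi-likelihood test (FDR = 0.145). Without WT embryo 4 it was -0.61 (SE 0.25, edgeR FDR = 0.289). The Wald test of DESeq2 on the same counts gave -0.95 with an FDR of 0.0258.

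*Lmo3*, a neuronal LIM-only gene, stood at 13.3, 8.34, 14.8, 3.11 and 5.91 CPM in WT and at 8.61, 10.3, 3.75, 12.8 and 15.0 CPM in mutant embryos. The genotypes covered nearly the same range. Its log2 fold change was 0.15 (SE 0.40, 95% interval -0.72 to 1.02, edgeR FDR = 0.901). *Lmo1* was lowest per exon length, at 1.49, 1.44, 2.94, 3.68 and 1.15 CPM in WT and 1.16, 1.36, 1.5, 0.637 and 7.3 CPM in mutant embryos. Mutant embryo 5 was the highest of all 10, and the other 4 mutants lay below the 2 highest WT embryos. The log2 fold change was 0.16 with all embryos (SE 0.60, 95% interval -1.12 to 1.45, edgeR FDR = 0.927) and -0.88 without mutant embryo 5 (SE 0.43, edgeR FDR = 0.393). With 23 to 210 counts per library, the fold change of *Lmo1* was imprecise, and the interval with all embryos covers differences in both directions.

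*Ldb1*, the more widely expressed of the LDB adaptors, was the most even member in WT, at 112, 126, 123, 119 and 124 CPM. In mutant embryos it stood at 127, 139, 134, 91.1 and 69.1 CPM. Mutants 1 to 3 lay above the WT range and mutants 4 and 5 below it, so that the coefficient of variation was 4.67% in WT and 27.3% in *Lmx1a-/-* embryos. The log2 fold change was -0.11 (SE 0.16, 95% interval -0.45 to 0.23, edgeR FDR = 0.795). Of the bases in *Ldb1* exons, 3.84% (177 bases) are shared with *Pprc1* on the opposite strand, and reads there cannot be assigned without the strand. *Pprc1* had a log2 fold change of -0.16 (SE 0.12, edgeR FDR = 0.547).

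*Ldb2*, the paralog with the narrower expression, stood at 54.4, 57.8, 36.1, 37.1 and 50.1 CPM in WT and at 16.8, 29.2, 34.6, 42.4 and 32.2 CPM in mutant embryos. Mutant embryo 4 was above WT embryos 3 and 4, and the other 4 mutants were below all WT embryos. The means were 47.1 ± 9.97 and 31.0 ± 9.35 CPM (SD, n = 5). The log2 fold change was -0.60 (SE 0.21, 95% interval -1.05 to -0.15), which did not pass in the edgeR quasi-likelihood test (FDR = 0.169) and passed in DESeq2 (FDR = 0.0580).

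Of the 6 members, 1 (*Lmo2*) was past the threshold, and it was lower, whereas 4.02% of the 21664 genes passed in either direction, 2.29% as lower and 1.72% as higher genes. Nothing is read from that count, because the same contrast chose *Lmo2*. Of the other 5 members, 0 passed in edgeR's quasi-likelihood test, and 2 (*Lmo4* and *Ldb2*) had an unadjusted p under 0.05, which 16.4% of all tested genes had. The same 2 passed in DESeq2, which called 9.89% of the genes it gave an FDR. Groups did not overlap for 1 of 6 members and for 4.44% of all tested genes. The median log2 fold change of the 5 members other than *Lmo2* was -0.11, beside -0.0049 over all tested genes.

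To compare levels between genes, CPM were divided by the length of all annotated exons of a gene. Per kb of exon, *Lmo2* led in WT at 63.8 ± 18.7 CPM (SD, n = 5). *Ldb1* followed at 26.2 ± 1.22, *Ldb2* at 14.1 ± 2.99, *Lmo4* at 7.31 ± 3.57, *Lmo3* at 1.77 ± 0.955 and *Lmo1* at 1.38 ± 0.715 CPM per kb. The ranges over WT embryos did not overlap between *Lmo2* and *Ldb1*, between *Ldb1* and *Ldb2* or between *Lmo4* and *Lmo3*, and they overlapped for the pairs *Ldb2* and *Lmo4* and *Lmo3* and *Lmo1*. In *Lmx1a-/-* embryos *Ldb1* came first, at 24.4 ± 6.64 CPM per kb, and *Lmo2* second, at 12.3 ± 2.24. The remaining order was as in WT, and the ranges of all neighbours in the mutant order overlapped. *Lmo2* in WT lay near *Lhx2*, the most abundant LIM homeodomain gene (61.9 ± 18.4 CPM per kb), and in mutants far below it (83.4 ± 18.9).

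**Figure D2:**
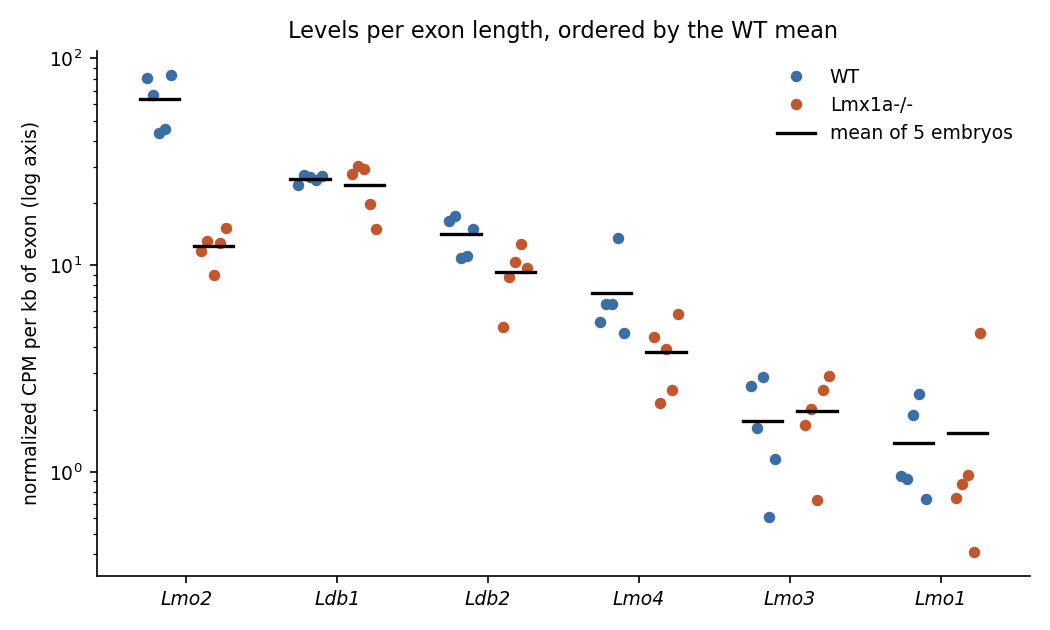
Normalized CPM per kb of exon (y axis, log scale) of the 6 genes (x axis, ordered by the WT mean), with 1 point per WT or *Lmx1a-/-* embryo and a black line at the mean of 5 embryos. *Lmo2* leads in WT at a mean of 63.8 and lies below *Ldb1* in *Lmx1a-/-* embryos, at 12.3 against 24.4.

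Because *Lmo2* was most of the LIM-only RNA, sums over the family followed it. Per kb, *Lmo2* was 84.7 ± 8.06% of the sum of the 4 LMO genes in WT (range 73.3% to 92.7%) and 63.9 ± 7.68% in *Lmx1a-/-* embryos (53.0% to 72.2%). The LMO sum was 74.3 ± 15.7 and 19.6 ± 5.26 CPM per kb (SD, n = 5), and without *Lmo2* it was 10.5 ± 3.78 and 7.29 ± 3.51. The LDB sum moved less, from 40.3 ± 3.24 to 33.7 ± 6.03. The ratio of LDB to LMO transcripts was thus 0.456 to 0.682 in WT and 0.863 to 2.7 in mutant embryos. Nothing is read from this separation, because the same contrast chose *Lmo2*. When the LIM homeodomain genes, which bind the same adaptors, were added to the LMO sum, the ratio was 0.230 ± 0.0322 in WT and 0.222 ± 0.0510 in mutants, and the ranges overlapped. These are ratios of RNA, and protein was not measured.

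Within WT, embryos with more *Lmx1a* had more *Lmo2*, apart from embryos 1 and 2, whose *Lmx1a* levels were nearly equal. The ratio of *Lmo2* to *Lmx1a* CPM was 2.18, 1.80, 2.08, 1.65 and 1.99 in WT embryos 1 to 5, a coefficient of variation of 11.1%, whereas the coefficients of *Lmo2* and *Lmx1a* alone were 29.3% and 25.6%. In *Lmx1a-/-* embryos the ratio was 0.281, 0.279, 0.159, 0.191 and 0.295, with a coefficient of 25.5%. The lowest WT ratio was above all mutant ratios, but nothing is read from this, because the same contrast chose *Lmo2*. Both genes mark the CH, so the share of CH in the captured tissue would move them alike, and its part was not tested. *Lmx1a* is also expressed in the choroid plexus epithelium, whose marker sum in WT embryos 1 to 5 was 416, 456, 101, 248 and 387 CPM. Embryos 3 and 4 were lowest in this sum and in both genes, and the part of choroid plexus was not tested.

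**Figure D3:**
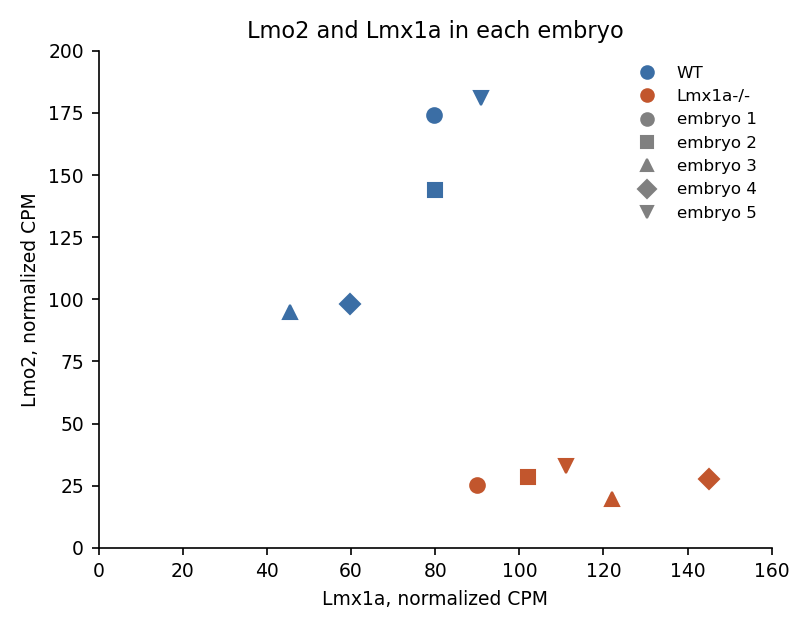
*Lmo2* (y axis) against *Lmx1a* (x axis), both in normalized CPM, with 1 point per embryo, blue for WT and orange for *Lmx1a-/-*, and 1 marker shape per embryo number. WT points lie at 45.6 to 90.8 CPM of *Lmx1a* and rise to 181 CPM of *Lmo2*, and mutant points lie at 89.9 to 145 CPM of *Lmx1a* and at most 32.8 CPM of *Lmo2*.

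The likeness of expression profiles was measured as the root mean square difference of log2(CPM + 0.5), each gene centred on its own mean, over the 16716 tested genes with a mean of at least 1 CPM. Over the 10 libraries, the 5 genes nearest to *Lmo2* were *Asb4* (0.321), an ankyrin repeat and SOCS box gene, *Unc5c* (0.327), a netrin receptor gene, *Sertm1* (0.336), *AC107792.3* (0.371) and *4931422A03Rik* (0.416), beside a median of 1.23 over all genes. This distance is set mostly by the genotype contrast that chose *Lmo2*. Over the 5 WT libraries alone, *Lmx1a* ranked 67th (0.145) and *Ldb2* 245th (0.201), beside a median of 0.443. *Lmo4* ranked 15765th in WT. Over the 5 mutant libraries alone *Lmx1a* ranked 9341st (0.353) and *Ldb2* 13358th (0.493), beside a median of 0.329.

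Genes that start within 500 kb of a member were examined because neighbours can share regulation or reads. Of 59 such genes tested, 2 were lower and 0 higher, beside 2.29% and 1.72% of all tested genes. An unadjusted p under 0.05 was found for 13, beside 16.4% of all genes, and 6 passed in DESeq2, beside 9.89%. Some of the 59 lie within the gene body of a member. One of the 2 lower genes was *4931422A03Rik* (ENSMUSG00000046085), the neighbour of *Lmo2* whose profile lay close to it. This neighbour stood at 7.05, 7.85, 5.32, 8.25 and 10.5 CPM in WT and at 1.10, 1.90, 2.04, 1.05 and 2.16 CPM in mutant embryos. The groups did not overlap, and the gene fell by 2.24 on the log2 scale (SE 0.28, edgeR FDR = 0.00144). It did not pass with the *Xist* level as a covariate (-2.08, FDR = 0.122) or with a choroid plexus covariate (-1.85, FDR = 0.107) in edgeR.

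*4931422A03Rik* lies at chr2:103966943-104028361 on the minus strand. Its start lies 46.5 kb past the 3′ end of *Lmo2* and runs back over 14.9 kb of the *Lmo2* gene body, so the genes are antisense to each other. Of its 1602 exon bases, 263 lie in the *Lmo2* gene body and 0 in annotated *Lmo2* exons. Since the strand setting of the counting is not stated, reads of unspliced or extended *Lmo2* RNA and of *4931422A03Rik* cannot be told apart in the 263 bases. A further 190 exon bases are shared with *Fbxo3*, which runs the other way from the same start region. *Fbxo3* had a log2 fold change of -0.02 (SE 0.16, edgeR FDR = 0.974).

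The 250 bases before the RefSeq start of *4931422A03Rik* (chr2:104028362-104028611, minus strand, RefSeq on GRCm38.p6) are shown because this neighbour moved with *Lmo2*. Capitals mark the 2 matches to CANNTG, the motif of bHLH proteins such as the LMO partner Tal1.
4931422A03Rik: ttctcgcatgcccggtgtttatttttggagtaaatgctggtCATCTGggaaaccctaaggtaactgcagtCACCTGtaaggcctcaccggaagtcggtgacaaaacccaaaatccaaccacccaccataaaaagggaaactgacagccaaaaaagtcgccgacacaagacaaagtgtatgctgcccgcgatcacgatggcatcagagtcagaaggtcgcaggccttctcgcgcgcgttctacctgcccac
CANNTG reads alike on both strands and occurs in 66.2% of the 32851 RefSeq windows of the same length. TAATTA, a core bound by many homeodomain proteins, occurs in 4.84% of windows, and GATA, read on both strands, in 53.6%. Neither is in this window, and none of the 3 motifs lies within another. In the windows of *Lmo1*, TAATTA was found in 2 of 2, and it was in 0 of 1 for *Lmo3*, 0 of 3 for *Lmo4* and 0 of 3 for *Ldb1*. *Lmo2* and *Ldb2* had no window.

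The other called neighbour was *Gbf1*, 107 kb from the start of *Ldb1*, which codes for an exchange factor of Arf proteins in the Golgi and fell by 0.30 on the log2 scale (SE 0.077, edgeR FDR = 0.0649). It lost its call without WT embryo 1 or 2 and without mutant embryo 2, 4 or 5, with an FDR of at most 0.147. The other neighbours of *Lmo2* did not pass in edgeR. *Caprin1* was at -0.08 (FDR = 0.658), *Nat10* at 0.13 (FDR = 0.592) and *D430041D05Rik* at -0.43 (FDR = 0.136) in edgeR, and the last passed in DESeq2 (FDR = 0.0543). For *Ldb2*, 11 annotated genes lie within the gene body without sharing its exons. Of its 12 tested neighbours 0 passed in edgeR's quasi-likelihood test, 3 had an unadjusted p under 0.05 (beside 16.4% of all genes) and 2 passed in DESeq2 (beside 9.89%). Their median log2 fold change was -0.35, beside -0.60 for *Ldb2* itself. *Gm43445*, which lies on the same strand within *Lmo4*, was at -1.74 (SE 0.54, edgeR FDR = 0.123) and passed in DESeq2 (FDR = 0.0199).

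Partner genes were taken from lists of proteins that bind LMO or LDB proteins or carry LIM domains, and 90 of them were tested. Among 10 tested LIM homeodomain genes, which share the LDB adaptors, 1 was lower and 2 were higher (30.0%, beside 4.02% of all genes). *Lhx1*, a gene of Cajal-Retzius cells, ranged from 12.6 to 24.0 CPM in WT and from 3.44 to 10.3 CPM in mutant embryos, without overlap (log2 fold change -1.36, SE 0.27, edgeR FDR = 0.0210). Its paralog *Lhx5*, also a gene of Cajal-Retzius cells, went the other way. It ranged from 0.896 to 2.75 and from 2.64 to 9.64 CPM (1.86, SE 0.40, edgeR FDR = 0.0324). *Lmx1a*, the gene mutated in this contrast, was the other higher gene, so nothing is read from the share of 30.0%. *Lhx2*, a selector of cortical identity, was at 0.43 (SE 0.20, edgeR FDR = 0.3). Without WT embryo 1 or 4, or without mutant embryo 4 or 5, *Lmx1a* did not pass, with an FDR of at most 0.157, whereas *Lhx1* and *Lhx5* passed whichever embryo was left out.

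Of the SSBP and LDB1 stability genes, whose products protect LDB1 or mark it for degradation, 0 of 4 passed in edgeR's quasi-likelihood test or DESeq2. An unadjusted p under 0.05 was found for 1, beside 16.4% of all genes. *Ssbp2* was at -0.13 (SE 0.090), *Ssbp4* at -0.54 (SE 0.22) and the ubiquitin ligase gene *Rlim*, which is X-linked, at -0.06 (SE 0.073). Of the bHLH partner genes, *Tal2*, a close relative of the Lmo2 partner Tal1, was at 1.21 (SE 0.36, edgeR FDR = 0.112), and it passed with the choroid plexus level as a covariate and in DESeq2 (FDR = 0.0192). *Nhlh1* was at -0.44 (SE 0.19) and *Neurod1* at 0.44 (SE 0.23), and neither passed in edgeR.

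The GATA, RUNX and ETS genes, partners in the blood complex of Lmo2, held 0 called genes of 11 tested in edgeR's quasi-likelihood test. Of these genes 4 had an unadjusted p under 0.05 (beside 16.4% of all genes) and 2, *Ets2* and *Fli1*, were called in DESeq2 (beside 9.89%). Their median log2 fold change was -0.53. *Gata1*, *Gata4* and *Gata5* were below the count filter. *Ets2* was at -0.80 (SE 0.24), *Fli1* at -0.60 (SE 0.21) and *Ets1* at -0.43 (SE 0.16). Among 15 corepressor and other partners, 1 was lower (6.67%, beside 2.29% of all genes). This was *Zfpm1*, the cofactor FOG1 of Gata factors (3.34 to 5.41 CPM in WT and 1.91 to 3.03 CPM in mutants, -0.87, SE 0.23, edgeR FDR = 0.0704). It lost its call without WT embryo 1, 4 or 5 and without mutant embryo 2, 3, 4 or 5, with an FDR of at most 0.157. Its paralog *Zfpm2* was at 0.47 (SE 0.15), *Cbfa2t2* at -0.16 (SE 0.063) and *Hdac2* at 0.21 (SE 0.087), and none of these passed in edgeR, while *Zfpm2* passed in DESeq2 (FDR = 0.0628).

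The cytoplasmic and other LIM domain genes, most of which act on actin and adhesion and do not bind LDB, held 8 lower and 0 higher genes of 38 tested (21.1%, beside 2.29% of all genes called lower). *Ablim1*, an actin-binding LIM gene, ranged from 40.5 to 76.1 CPM in WT and from 21.3 to 27.5 CPM in mutants (log2 fold change -1.07, SE 0.15, edgeR FDR = 0.00249). *Crip2* was at -0.73 (SE 0.14), and these 2 genes passed whichever embryo was left out. *Prickle1* and *Prickle2*, planar cell polarity genes, were at -0.91 (SE 0.22) and -0.70 (SE 0.17), *Pdlim7* at -0.52 (SE 0.13), *Ajuba* at -0.48 (SE 0.13) and *Zyx* at -0.37 (SE 0.098), and each of these lost its call without WT embryo 1, mutant embryo 2 or mutant embryo 4, and some without other embryos, with an FDR of at most 0.155. *Lmo7*, which is named for its LIM domain and is not a LIM-only gene, was at -2.28 (SE 0.64, edgeR FDR = 0.0913) and rested on WT embryo 4, at 74.7 CPM beside 6.31 to 14.2 CPM in the other WT embryos. Without that embryo it was at -1.02 (SE 0.33, edgeR FDR = 0.161), and it passed in 3 of 10 fits with 1 embryo left out. *Crip1* (-0.98), *Pdlim5* (-0.41) and *Tes* (-0.56) did not pass in edgeR, and *Crip1* passed in DESeq2 (FDR = 0.0343). In all, 13 partner genes passed. With the *Xist* level as a covariate 0 of 90 partner genes passed in edgeR, and 31 of all tested genes did. In that fit 16 of 90 had an unadjusted p under 0.05. The share of all genes under 0.05 in that fit is not given here, so nothing is read from the 16. With the choroid plexus covariate *Lmx1a* and *Tal2* passed. With only embryos without *Xist*, *Ablim1* was at -1.0 and *Prickle2* at -1.05.

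**Figure D4:**
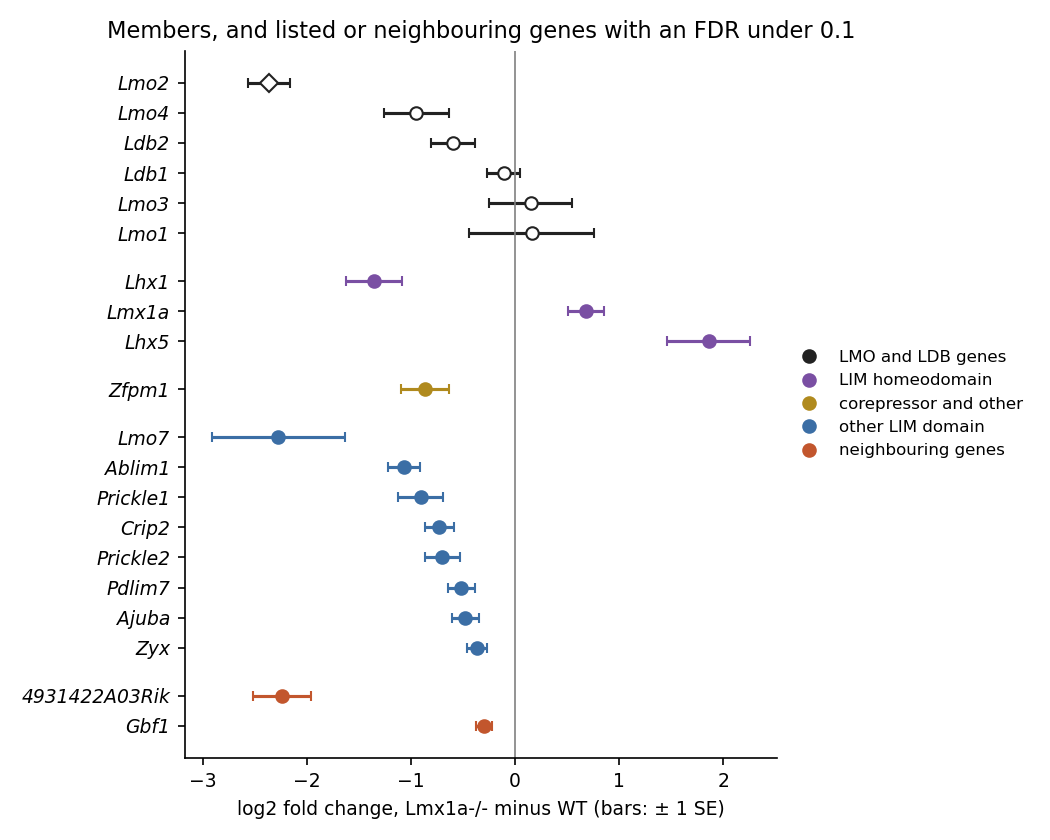
Log2 fold change of *Lmx1a-/-* minus WT (x axis, bars of 1 SE either side) for the 6 members and for the neighbouring genes and partner genes (bHLH genes not shown) with an FDR under 0.1 (y axis, coloured by list). Filled circles passed in edgeR's quasi-likelihood test, open circles did not, and the open diamond is *Lmo2* at -2.37, which was chosen for this difference and carries no test.

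Markers of other cells that use *Lmo2* or could enter the captured area were measured in the same libraries. Of 15 endothelial markers 0 were called in edgeR's quasi-likelihood test, 2 had an unadjusted p under 0.05 (beside 16.4% of all genes) and 1 passed in DESeq2 (beside 9.89%). Their summed level was 34.2 to 119 CPM in WT and 28.9 to 73.8 CPM in mutant embryos. None of the 15 was at 0 in a library. The endothelial sums of the genotypes overlapped. With the endothelial level as a covariate the log2 fold change of *Lmo2* was -2.31 (SE 0.21). The part of endothelial RNA in the *Lmo2* difference was not tested.

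Of 12 erythroid markers with a row, 11 were tested and 0 called in edgeR's quasi-likelihood test. Of these markers 6 had an unadjusted p under 0.05 (beside 16.4% of all genes) and 4 passed in DESeq2 (beside 9.89%). The sum of all 12 was 644 to 1490 CPM in WT and 269 to 584 CPM in mutant embryos, without overlap. *Hba-a2* was at 0 in 8 libraries. The part of erythroid RNA in the *Lmo2* difference was not tested. Of 11 tested choroid plexus markers, 3 were lower, beside 2.29% of all genes. The sum of all 13 listed choroid plexus markers was 101 to 456 CPM in WT and 131 to 196 CPM in mutants. *Kl* and *Kcne2* were each at 0 in 2 libraries and *Cldn2* in 3. WT embryo 3 had the lowest choroid plexus sum of the 10 embryos, 101 CPM, and the lowest *Lmo2* of the WT embryos, 94.8 CPM. With the choroid plexus level as a covariate *Lmo2* was at -1.90 (SE 0.25) and *Ldb2* moved from -0.60 to -0.13 (SE 0.29). The part of choroid plexus RNA in the *Lmo2* difference was not tested.

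Of the mesenchymal and meningeal markers 2 of 10 were lower (sums 328 to 926 CPM in WT, 255 to 519 CPM in mutants), and of the microglial markers 1 of 9 (22.9 to 42.3 and 25.0 to 42.9 CPM). Among cortical neuroepithelium markers 2 of 8 were higher (354 to 565 and 569 to 663 CPM, without overlap). Of the CH markers 6 of 14 were lower, while their sums overlapped (2460 to 4650 CPM in WT, 3130 to 4160 CPM in mutants). Of the Cajal-Retzius markers 3 of 9 tested were lower. The sum of all 10 was 430 to 641 CPM in WT and 289 to 429 CPM in mutants, without overlap. The study reported some of these markers as lower in these same libraries. None of the Cajal-Retzius genes it reported as higher is in the list, so nothing is read from this count or sum. Over all tested genes, 2.29% were called lower and 1.72% higher. The part of a changed cell makeup in the *Lmo2* difference was not tested.

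Across 21 alternatives in scaling, filter, tool, covariates and embryos, the log2 fold change of *Lmo2* lay between -2.71 and -1.90. *Lmo4* (-1.14 to -0.40) and *Ldb2* (-0.82 to -0.13) were below 0 in all 21. *Lmo1*, *Lmo3* and *Ldb1* took both signs. *Lmo4* was at -0.40 (SE 0.51) with the *Xist* covariate and at -0.50 (SE 0.44) when the *Xist*-free WT embryo was set against the mutants.

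**Figure D5:**
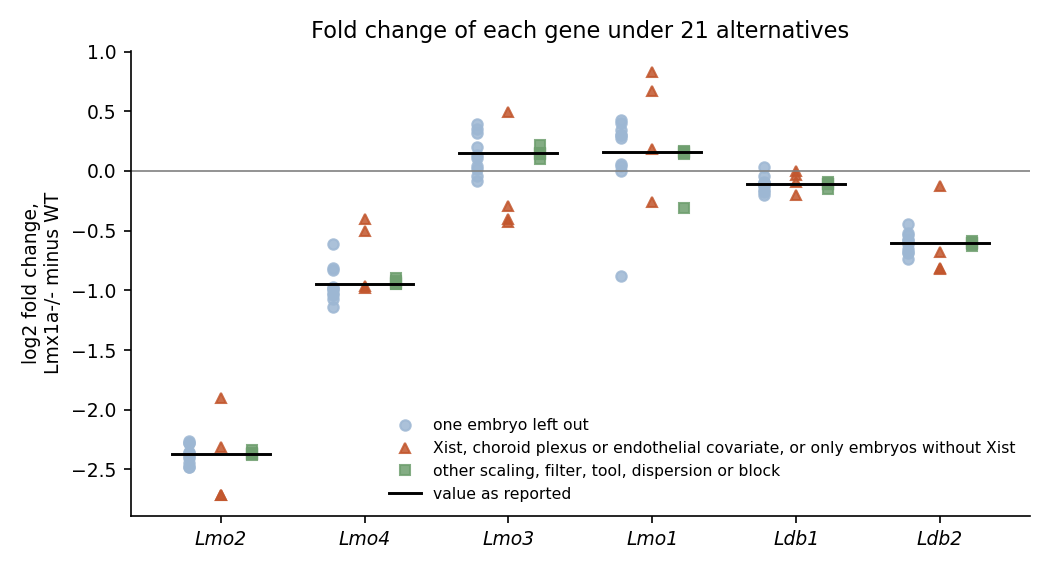
Log2 fold change of *Lmx1a-/-* minus WT (y axis) of the 6 genes (x axis) under 21 alternatives, as circles for 1 embryo left out, triangles for covariates or only embryos without *Xist*, and squares for other settings, with a black line at the value from all 10 libraries. The points of *Lmo2* lie between -2.71 and -1.90, and those of *Lmo1*, *Lmo3* and *Ldb1* lie on both sides of 0.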

How the data were processed

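RNA was isolated from laser-captured CH of 5 WT and 5 *Lmx1a-/-* embryos, and libraries were made with a SMARTER kit. Per the submitters' processing notes, the authors used FastQC 0.11.8, Trimmomatic, STAR 2.7.1a with GRCm38 and HTSeq 0.11.2, and deposited unnormalized read counts per Ensembl gene. The strand setting of the counting is not given in the sources used here. Of 52508 rows, 281 exact repeats were dropped. Groups and embryo numbers come from the labels.

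Genes that reached 10 counts in 3 or more libraries entered edgeR 4.0.16 (R 4.3.3, quasi-likelihood test, TMM scaling, genotype as the only term) at a Benjamini-Hochberg FDR under 0.1 over all 21664 genes. DESeq2 1.42.0 was an alternative, with other scaling, filters, thresholds, covariates, a block and embryos left out. The covariate fits used the *Xist* level or the mean log2 level of a marker list. The fit was tested on simulated counts, where it recovered 57.5% of the genes simulated as changed and 10.9% of its calls were false. Intervals of fold changes use the t distribution of the fit. Coding sequences of 1 transcript per gene were aligned with MAFFT 7.526. Motifs were searched as exact letters.

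The members and lists were chosen with earlier results of these data known. Genes named are the members, *Lmx1a*, all partner genes past the threshold with up to 3 more per list by smallest p, neighbours past the threshold, the 5 nearest profiles to *Lmo2*, and *Xist* with summed Y-linked genes (markers by list). *Pprc1*, *Fbxo3*, *Caprin1*, *Nat10*, *D430041D05Rik* and *Gm43445* were named after their values were seen. A few of the listed genes are not reported.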

Additional observations from a re-analysis of the deposited data

Results flagged for a closer look

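In 10 of 86 groups of 5 embryos, over 43 named genes, 1 embryo lay farther from the rest than Dixon's 95% limit allows, and chance gives about 1 such group in 20. WT embryo 4 was the high embryo in 6 of them. Beside *Lmo4* at 47.8 CPM (16.6 to 22.9 in the other WT embryos), these were *Lmo7* at 74.7 (6.31 to 14.2), *Ablim1* at 76.1 (40.5 to 49.7), *Ajuba* at 45.8 (30.3 to 33.7), *Ets2* at 42.8 (15.6 to 21.5) and *Prickle1* at 14.1 CPM (7.39 to 9.0). The same embryo had the lowest endothelial marker sum of the WT embryos, 34.2 CPM.

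Mutant embryo 5 stood apart in *Lmo1*, at 7.3 CPM beside 0.637 to 1.5 in the other mutants, and in *Asb4*, at 43.0 CPM beside 19.0 to 19.9. It also had the lowest *Ldb1* and the highest *Lmo2* of the mutants. *Tes* was at 18.1 CPM in mutant embryo 4 (14.6 to 15.5 in the others), and *Crip1* was at 2.62 CPM in WT embryo 2 (4.53 to 5.26 in the others).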

How the results depend on the processing

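Among members, 1 passed as reported and 3 passed in DESeq2, where *Lmo4* (-0.95) and *Ldb2* (-0.60) joined it. In each fit with 1 embryo left out that number was 1, and since *Lmo2*, chosen by this contrast, is that gene, nothing is read from it. Partner genes past the threshold numbered 13 as reported, 6 at an FDR under 0.05 and 5 to 14 with 1 embryo left out. With the *Xist* covariate they numbered 0 (16 of 90 at an unadjusted p under 0.05 in edgeR) and with the choroid plexus covariate 2. Neighbouring genes numbered 2 as reported, 1 at an FDR under 0.05, 1 with library size scaling, 6 in DESeq2, 0 with the *Xist* covariate, the choroid plexus covariate or only embryos without *Xist* (7, 3 and 9 at an unadjusted p under 0.05 in edgeR), and 1 to 4 with 1 embryo left out. Genes called in the whole table numbered 870 as reported, 448 at an FDR under 0.05, 1766 in DESeq2, 31 with the *Xist* covariate, 62 with the choroid plexus covariate, 130 with only embryos without *Xist* and 451 to 1059 with 1 embryo left out. The cause of these changes was not tested.

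The sign turned in 3 members. *Lmo1* was at -0.26 with the choroid plexus covariate and between -0.88 and 0.43 with 1 embryo left out (-0.00 without WT embryo 5 and -0.88 without mutant embryo 5). *Lmo3* was at -0.43 with the *Xist* covariate, -0.29 with the choroid plexus covariate, -0.40 with only embryos without *Xist*, -0.08 without WT embryo 4 and -0.04 without mutant embryo 5 (-0.08 to 0.39 with 1 embryo left out). *Ldb1* was at 0.03 without mutant embryo 5 (-0.20 to 0.03). Shares and ratios of summed levels moved by less than 1 SD when another transcript length or scaling was used or 1 embryo was left out.

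Embryos with the same number in both genotypes did not deviate together (correlations of deviations -0.136 to 0.0332), so the numbers do not pair them. With the embryo number as a block, 1 member, 7 partner genes, 1 neighbouring gene and 601 genes in all passed, and *Lmo1* was at -0.31. *Lmo1* and *Lmo3* had under 100 counts in some libraries, which limits their precision.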

Other observations

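Over the 5 WT embryos alone, the genes whose profiles lay nearest to that of *Lmo2* differed from those over all 10 libraries. They were *Cd84* (root mean square difference of centred log2(CPM + 0.5) 0.0416), *Gm5089* (0.0481), *Flrt3* (0.0672), *Flrt2* (0.0688) and *Casc1* (0.0748), beside a median of 0.443. *Flrt2* and *Flrt3* code for membrane proteins that bind latrophilins and Unc5 receptors. With 5 libraries and 16716 genes, near profiles are found for many genes, and the list is a description of these embryos.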
